A study of Homo sapiens with 7 samples.

Results

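The proteasome subunit genes are described here in SUM159, a triple-negative breast cancer cell line of mesenchymal type, after depletion of the tyrosine phosphatase SHP2. Members were chosen by name: every gene whose symbol begins with PSMA, PSMB, PSMC, PSMD or PSME followed by a number, leaving out the interferon-inducible subunits PSMB8, PSMB9 and PSMB10, pseudogenes and interacting proteins. The RefSeq annotation of GRCh38.p14 lists 40 such protein-coding genes, and 37 of them were among the 18417 genes measured. PSMC5, PSMD7 and PSMD13 had no probe with a single gene symbol and were not analysed here. The 37 comprise 8 genes of the alpha ring and 8 of the beta ring of the core particle, 5 ATPases and 9 non-ATPase subunits of the regulatory particle, 3 chaperones that assemble it and 4 genes of alternative activators.

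The proteasome is the protease that degrades ubiquitin-tagged proteins in the cytosol and nucleus. Its barrel-shaped core particle has outer alpha rings, which gate the entry, and inner beta rings, which hold the protease sites, and the regulatory particle recognises tagged proteins, removes the ubiquitin and unfolds them with a ring of ATPases. Cells keep the subunits in proportion partly by transcribing their genes together, and when proteasome activity falls short the transcription factor NFE2L1 (also called NRF1) raises many of them at once.

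RNA was measured on 7 Human Gene 1.0 ST arrays, which carry probes along each transcript. The cells carried a doxycycline-inducible lentiviral miR-type hairpin: SHP2 sh1 on 2 arrays, SHP2 sh2 on 3 arrays and the control hairpin Ctrl shRNA on 2 arrays. All 7 samples, controls included, received doxycycline for 15 days. The labels give neither separate cultures nor separate clones for the arrays of a group, so p-values reflect only how these arrays spread, which may be technical. The labels name a column-based RNA kit, whereas the methods of the study name TRIzol for its arrays. The deposited values are robust multi-array averages (RMA) on the log2 scale, so 1 unit is a doubling of probe brightness, and the brightness of different genes is not a measure of their relative RNA amounts.

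PTPN11, which encodes SHP2, was at 7.90 and 6.93 under SHP2 sh1 and at 7.96, 7.20 and 7.89 under SHP2 sh2, against 9.53 and 9.18 under Ctrl shRNA. All 5 SHP2 hairpin arrays lay below both controls, as they did for 7.17% of all genes. The difference was -1.80 for the mean of both hairpins (SE 0.34, adjusted p = 0.758 from limma), or -1.44 without both replicate 2 SHP2 arrays. The replicate 2 arrays of both SHP2 hairpins differed from the other 5 arrays. Their standard deviations over all probes were 2.00 and 1.92, against 2.09 to 2.15 on the other 5 arrays, and the correlation over all probes was 0.972 between these 2 arrays and 0.886 to 0.965 between either of them and the others. Members' differences from Ctrl shRNA for the mean of both hairpins, where printed over all 7 arrays, are therefore also given without these 2. Of 5 markers of SUM159 cells, KRT18, VIM, CD44 and FN1 were at 8.65 or more on all 7 arrays. The fifth, ZEB1, was at 8.45 and 7.33 under SHP2 sh1 and at 8.12, 7.01 and 8.61 under SHP2 sh2, against 8.40 and 8.05 under Ctrl shRNA. The defining markers of blood and endothelial cells, PTPRC, PECAM1 and CDH5, had control means of 4.10, 5.95 and 5.77. PECAM1 reached 7.55 on SHP2 sh1 replicate 1 and 7.05 on SHP2 sh2 replicate 3, against 6.32 and 5.59 under Ctrl shRNA. RNA was taken from whole cultures, where fewer expressing cells and less RNA per cell cannot be told apart.

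In Ctrl shRNA cells 32 of the 37 proteasome subunit genes lay in the brightest 25% of all genes, with control means of 8.25 to 10.53. The brightest were PSME3, the nuclear activator PA28 gamma (10.62 and 10.43 on the 2 arrays), PSMA6 of the alpha ring (10.66 and 10.33) and PSMD8, a lid subunit of the regulatory particle (10.48 and 10.36). The others were PSMD4, PSMD6 and PSMD9 at control means of 7.18 to 7.90 and the tissue-restricted genes PSMA8 and PSMB11. PSMA8, the alpha subunit of the testis, was at 3.23 and 3.32 under SHP2 sh1 and at 3.30, 3.44 and 3.15 under SHP2 sh2, against 3.30 and 3.30 under Ctrl shRNA. PSMB11, the beta subunit of the thymus, was at 4.64 and 5.26 under SHP2 sh1 and at 4.98, 5.54 and 4.80 under SHP2 sh2, against 5.00 and 4.87 under Ctrl shRNA. Both genes were dim on every array. A filter that kept genes with a mean of at least 5 passed 36 of the 37, all but PSMA8.

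Most proteasome subunit genes lay below the control on average with either SHP2 hairpin, but none passed the test. With SHP2 sh1, 33 of 37 had a log2 difference from Ctrl shRNA below 0, with a median of -0.38. With SHP2 sh2, 32 of 37 were below 0, with a median of -0.53. For the mean of both hairpins, the median was -0.46 and 34 of 37 were below 0. The 2 comparisons share the Ctrl shRNA arrays. Over all 18417 genes, 43.5% were below 0 with SHP2 sh1 (median 0.04), 42.8% with SHP2 sh2 (median 0.09) and 42.0% for the mean (median 0.08). In the brightest 25% of all genes, where 32 members lie, 78.6%, 85.1% and 83.6% were below 0, with medians of -0.29, -0.42 and -0.35. The members' own median SE was 0.54, 0.50 and 0.46 in the 3 comparisons. limma called 0 of 37 members at an adjusted p under 0.05 in each of them, and 0% of all genes. At an unadjusted p under 0.05 there were also 0 members, and 201, 432 and 358 of all genes. The smallest adjusted p of a member was 0.995, 0.667 and 0.758. A p that misses the threshold with errors of this size does not show that a gene did not differ. Leaving out SHP2 sh1 replicate 1 placed the SHP2 sh1 median at -1.09, and leaving out SHP2 sh1 replicate 2 placed it at 0.10. Without SHP2 sh2 replicate 2 the SHP2 sh2 median was -0.05. The median for the mean of both was -0.80 without SHP2 sh1 replicate 1, -0.13 without SHP2 sh1 replicate 2 and -0.20 without SHP2 sh2 replicate 2.

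The 5 SHP2 hairpin arrays did not share 1 pattern. The members' median difference from the control mean with SHP2 sh1 was 0.10 on replicate 1 and -1.09 on replicate 2. It was -0.18, -1.21 and 0.17 on SHP2 sh2 replicates 1, 2 and 3. Only 1 array of each hairpin, both numbered 2, had a median below -1. On SHP2 sh1 replicate 2, 32 of 37 members lay below both Ctrl shRNA arrays, where 37.4% of all genes did. On SHP2 sh2 replicate 2 there were 34 of 37, against 40.4% of all genes. The counts on the other arrays were 6 on SHP2 sh1 replicate 1 (40.8% of all genes), 24 on SHP2 sh2 replicate 1 (33.3%) and 5 on SHP2 sh2 replicate 3 (30.0%). Conversely, 18 members lay above both controls on SHP2 sh1 replicate 1 (31.2% of all genes) and 22 on SHP2 sh2 replicate 3 (41.7%), so that on these arrays more members lay above the controls than below them. Above both controls were also 4 members on SHP2 sh1 replicate 2 (52.8% of all genes), 4 on SHP2 sh2 replicate 1 (42.9%) and 3 on SHP2 sh2 replicate 2 (53.9%).

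**Figure D1:**
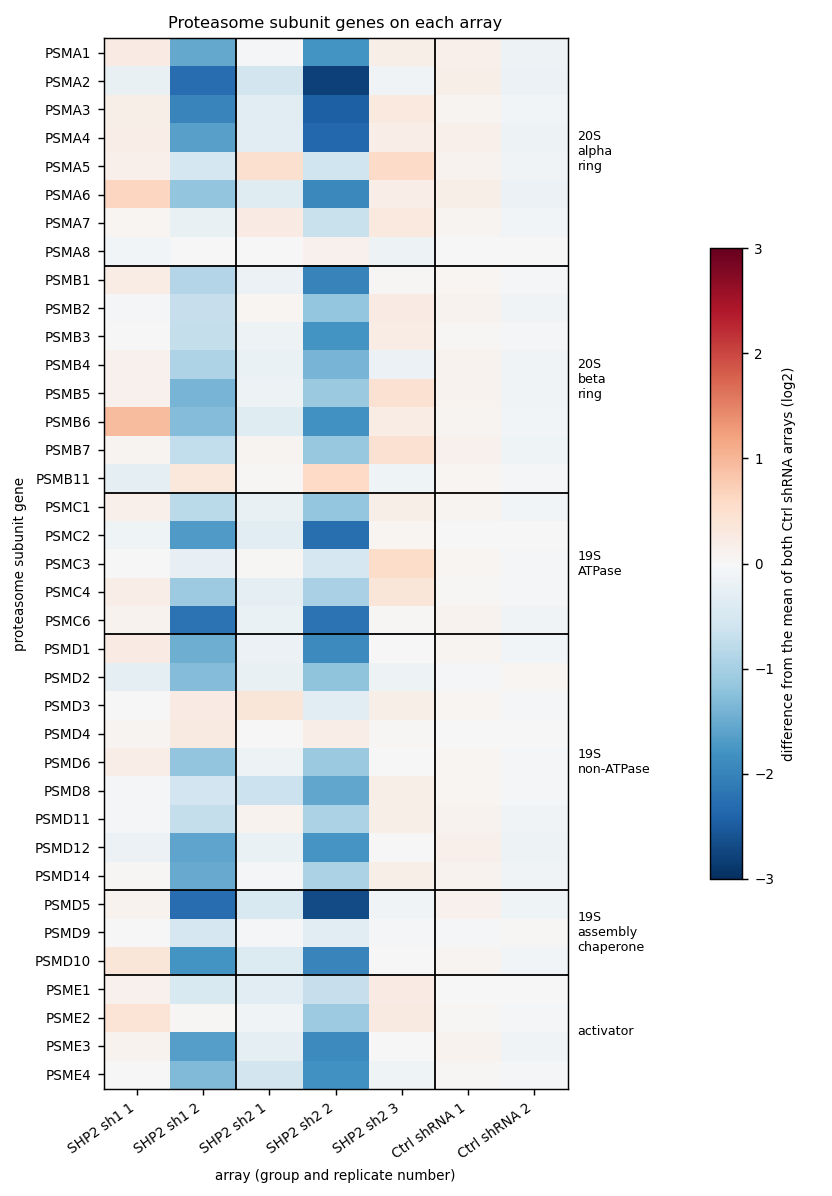
Difference of each of the 37 proteasome subunit genes (rows, by part of the proteasome) from the mean of both Ctrl shRNA arrays (log2, colour) on each array (columns, by group and replicate number). Blue rows fill the columns of SHP2 sh1 replicate 2 and SHP2 sh2 replicate 2, where the medians are -1.09 and -1.21, except for genes such as PSMD4 and PSMB11, and the other columns are pale.

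Other bright genes were also low on these 2 arrays. Of the 4605 genes in the brightest 25%, 3533 lay below both controls on SHP2 sh1 replicate 2 and 3974 on SHP2 sh2 replicate 2. On SHP2 sh2 replicate 1, where 24 of 37 members lay below both controls, 3015 of these 4605 genes did as well, and their median was -0.18, as was that of the members. On SHP2 sh1 replicate 1 there were 1657 and on SHP2 sh2 replicate 3 there were 1954 of them, with medians of 0.0041 and -0.04. The brightest 25% of all genes had medians of -0.61 on SHP2 sh1 replicate 2 and -1.01 on SHP2 sh2 replicate 2, against -1.24 and -1.66 for the 32 proteasome subunit genes among them. These 32 were brighter than that 25%, with a median control mean of 9.59 against 8.99. All genes were also split into 10 classes by control brightness. On the 2 arrays 26 and 25 of the 37 members lay below the median of their own class. The brightest class, where 22 of the 37 lie, had medians of -0.74 and -1.19. The 57 cytosolic ribosomal protein genes, which encode another large complex, had -0.40 and -0.58. All genes together had 0.10 and 0.18. After cyclic loess, which reduces a trend of the difference with brightness between arrays, the medians of the 37 members were -0.83 and -0.67. The 32 members in the brightest 25% had -0.89 and -0.94, where the brightest 25% of all genes had -0.35 and -0.43. The ribosomal genes had -0.08 and 0.09. No test of the members against these groups was made. The median of 9 blood and endothelial markers was 0.35 and 0.59 on these 2 arrays and -0.14 to 0.17 on the other 3 SHP2 hairpin arrays. Their median control mean was 5.61. Class 3 of the 10, counted from the dimmest (median control mean 5.74), had medians of 0.34 and 0.67 on the 2 arrays. The 5 markers of SUM159 cells had medians of -0.63 and -0.82 on the 2 arrays and of -0.07 to 0.15 on the others. After cyclic loess the blood and endothelial markers had medians of 0.06 and 0.08 on the 2 arrays, and the SUM159 markers -0.25 and -0.11. The part of array quality or culture state in the members' shift was not tested.

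**Figure D2:**
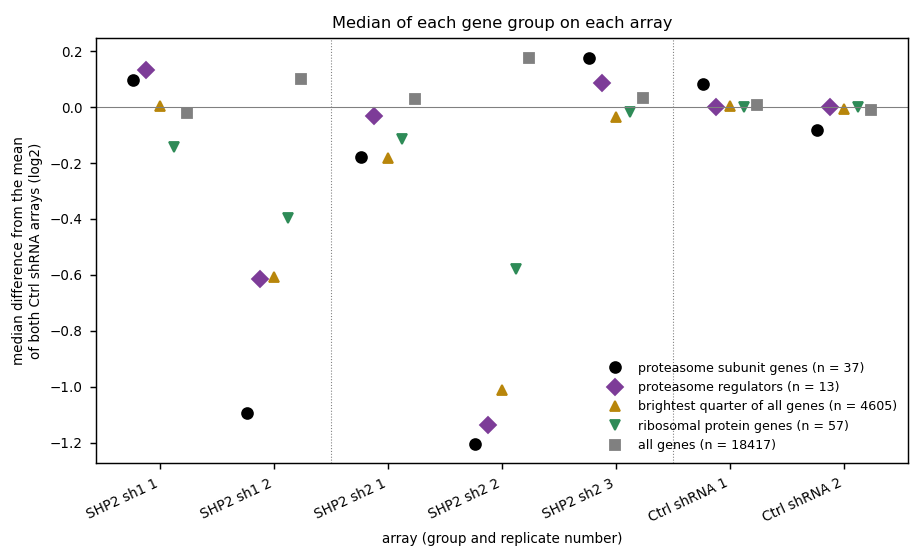
Median difference from the mean of both Ctrl shRNA arrays (log2) on each array, for the proteasome subunit genes, their regulators, the brightest 25% of all genes, the ribosomal protein genes and all genes, each symbol being 1 gene group. The proteasome subunit genes lie at -1.09 and -1.21 on the 2 replicate 2 arrays of the SHP2 hairpins, below the other groups, and within 0.18 of 0 on the other arrays.

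The catalytic subunits of the beta ring varied more between the arrays of a hairpin than between the group means. PSMB5, which has the chymotrypsin-like site and is the target of bortezomib, was at 9.11 and 7.59 under SHP2 sh1 and at 8.83, 7.87 and 9.44 under SHP2 sh2, against 9.10 and 8.88 under Ctrl shRNA. PSMB6, which has the caspase-like site, was at 10.64 and 8.40 under SHP2 sh1 and at 9.32, 7.88 and 9.92 under SHP2 sh2, against 9.78 and 9.60 under Ctrl shRNA. PSMB7, which has the trypsin-like site, was at 9.58 and 8.76 under SHP2 sh1 and at 9.58, 8.37 and 9.96 under SHP2 sh2, against 9.64 and 9.37 under Ctrl shRNA. In all 3 genes the 2 replicate 2 arrays of the SHP2 hairpins were the lowest of the 7 and SHP2 sh2 replicate 3 lay above both controls, so the groups overlapped. The difference for the mean of both hairpins was -0.46 for PSMB5 (SE 0.53), -0.41 for PSMB6 (SE 0.73) and -0.27 for PSMB7 (SE 0.46), with adjusted p of 0.758, 0.790 and 0.785 from limma. Without both replicate 2 SHP2 arrays it was 0.13, 0.44 and 0.17. PSMB6 was the member farthest above the control mean on any array, by 0.95 on SHP2 sh1 replicate 1. Of the 8 beta ring genes, 7 were below 0 in this comparison, and the exception was PSMB11 at 0.09 (SE 0.28), which was at -0.17 without both replicate 2 SHP2 arrays. Of all genes 42.0% were below 0 in it, and of the brightest 25% of all genes 83.6%. Without both replicate 2 SHP2 arrays 2 of the 8 beta ring genes were below 0, with a median of 0.07.

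All 8 alpha ring genes were below 0 for the mean of both hairpins (median -0.54), where 83.6% of the brightest 25% of all genes were. Without both replicate 2 SHP2 arrays 2 of the 8 were below 0, with a median of 0.12. PSMA2, an alpha ring subunit, had the lowest difference of all members, -1.20 (SE 0.84, adjusted p = 0.758 from limma), or -0.27 without both replicate 2 SHP2 arrays. It was at 9.74 and 7.68 under SHP2 sh1 and at 9.41, 7.15 and 9.85 under SHP2 sh2, against 10.14 and 9.77 under Ctrl shRNA. Both SHP2 sh1 arrays lay below both controls, as they did for 12.3% of all genes, whereas SHP2 sh2 replicate 3 lay between the controls. PSMA5, another subunit of the ring, was at 8.57 and 7.90 under SHP2 sh1 and at 8.91, 7.82 and 9.00 under SHP2 sh2, against 8.52 and 8.32 under Ctrl shRNA. It was above both controls on the 3 SHP2 hairpin arrays other than replicate 2 and below them on the 2 numbered 2. Its difference for the mean was -0.01 (SE 0.38, adjusted p = 0.987 from limma), or 0.34 without those 2 arrays.

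In the regulatory particle all 5 ATPases were below 0 for the mean of both hairpins (median -0.37). PSMC6, 1 of the ATPases that unfold and thread substrates, was at 8.50 and 6.19 under SHP2 sh1 and at 8.20, 6.18 and 8.44 under SHP2 sh2, against 8.52 and 8.29 under Ctrl shRNA. Its values on the 2 replicate 2 arrays lay near 6.2, and SHP2 sh1 replicate 1 and SHP2 sh2 replicate 3 lay between the controls. The difference for the mean was -0.93 (SE 0.80, adjusted p = 0.758 from limma), or 0.0092 without both replicate 2 SHP2 arrays. A second probe of PSMC6 also had its lowest values on the 2 replicate 2 arrays of the SHP2 hairpins, at 8.21 and 6.50 under SHP2 sh1 and at 7.98, 6.03 and 8.19 under SHP2 sh2, against 8.11 and 8.00 under Ctrl shRNA. The annotation gives both probes to PSMC6, and whether either also reads processed copies of the gene was not tested.

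Of the 9 non-ATPase subunits, 7 were below 0 for the mean of both hairpins, and PSMD3 and PSMD4 were above 0. Without both replicate 2 SHP2 arrays 3 of the 9 were below 0, with a median of 0.05. PSMD4, a ubiquitin receptor (Rpn10 in yeast), was at 7.27 and 7.46 under SHP2 sh1 and at 7.20, 7.39 and 7.22 under SHP2 sh2, against 7.20 and 7.16 under Ctrl shRNA. It was the only member above both controls on both SHP2 sh1 arrays, where 12.8% of all genes were, and its difference for the mean was 0.14 (SE 0.17, adjusted p = 0.758 from limma), or 0.06 without both replicate 2 SHP2 arrays. PSMD3, a lid subunit, was at 9.92 and 10.16 under SHP2 sh1 and at 10.28, 9.58 and 10.09 under SHP2 sh2, against 9.98 and 9.85 under Ctrl shRNA. Its difference was 0.10 (SE 0.24, adjusted p = 0.835 from limma), or 0.14 without those 2 arrays, and the groups overlapped. PSMD2, the scaffold subunit on which ubiquitin receptors dock (Rpn1 in yeast), was at 9.09 and 8.06 under SHP2 sh1 and at 9.14, 8.16 and 9.21 under SHP2 sh2, against 9.31 and 9.43 under Ctrl shRNA. PSMD2 was the only member below both controls on all 5 SHP2 hairpin arrays, where 7.17% of all genes were, and its difference for the mean was -0.66 (SE 0.39, adjusted p = 0.758 from limma), or -0.23 without those 2 arrays.

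PSMD5, a chaperone of regulatory particle assembly, was at 9.44 and 7.05 under SHP2 sh1 and at 8.87, 6.66 and 9.24 under SHP2 sh2, against 9.46 and 9.21 under Ctrl shRNA. Its difference for the mean was -1.09 (SE 0.87, adjusted p = 0.758 from limma), or -0.09 without both replicate 2 SHP2 arrays, and SHP2 sh1 replicate 1 and SHP2 sh2 replicate 3 lay between the controls. All 3 chaperones and all 4 activator genes were below 0. PSME3 was at 10.63 and 8.87 under SHP2 sh1 and at 10.25, 8.62 and 10.54 under SHP2 sh2, against 10.62 and 10.43 under Ctrl shRNA. PSME4, the activator PA200, was at 9.66 and 8.31 under SHP2 sh1 and at 9.08, 7.82 and 9.51 under SHP2 sh2, against 9.68 and 9.59 under Ctrl shRNA. Its 3 SHP2 sh2 arrays lay below both controls, as they did for 16.1% of all genes, whereas SHP2 sh1 replicate 1 lay between the controls.

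**Figure D3:**
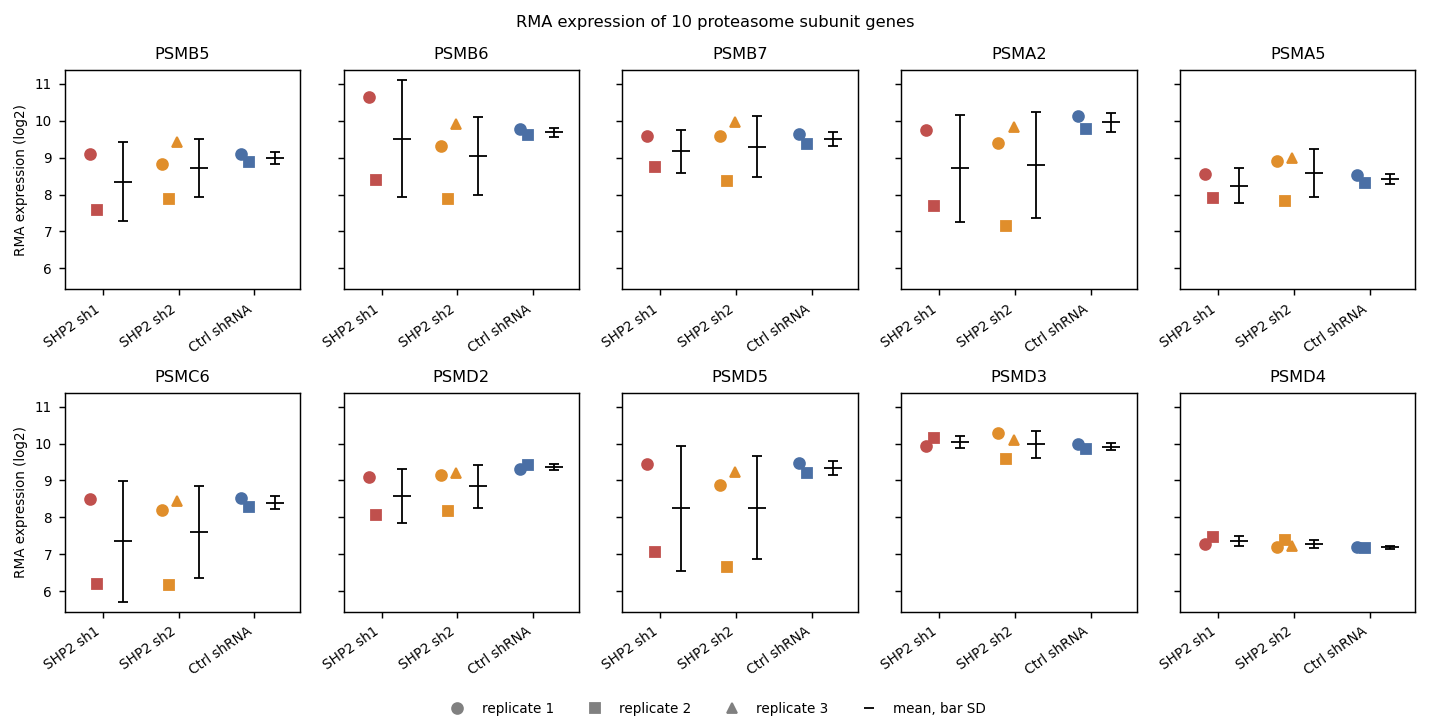
RMA expression (log2) of 10 proteasome subunit genes with 1 symbol for each array (its shape the replicate number) in 3 groups, and the black bar the group mean and SD. The 2 replicate 2 arrays of the SHP2 hairpins lie lowest for PSMB5, PSMB6, PSMB7, PSMA2, PSMA5, PSMC6, PSMD2 and PSMD5, down to 6.18 for PSMC6, and do not for PSMD4.

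Few members separated a whole group from the controls. Both SHP2 sh1 arrays lay below both controls for 4 of 37 members, where 12.3% of all genes did, namely PSMA2, PSMC2, PSMD12 and PSMD2. All 3 SHP2 sh2 arrays did so for 3 of 37, where 16.1% of all genes did, namely PSMB4, PSMD2 and PSME4. PSMC2, PSMD12 and PSMB4 are named because they are these exceptions. Above both controls were 0 of 37 members on all 3 SHP2 sh2 arrays (24.2% of all genes) and 0 on all 5 SHP2 hairpin arrays (8.13% of all genes). These shares of the members do not exceed the shares of all genes.

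Within each hairpin, the distance of replicate 2 from the other arrays differed widely between proteasome subunit genes. It uses no control array. SHP2 sh1 replicate 2 differed from replicate 1 by a median of -1.09 over the 37 members, from -2.38 for PSMD5 to 0.62 for PSMB11. SHP2 sh2 replicate 2 differed from the mean of replicates 1 and 3 by a median of -1.32, from -2.48 for PSMA2 to 0.65 for PSMB11. PSMD5, PSMC6, PSMA2 and PSMA3 were among the 6 lowest members in both hairpins. PSMD5 was at -2.38 and -2.40, PSMC6 at -2.31 and -2.14, PSMA2 at -2.06 and -2.48 and PSMA3, another alpha ring subunit, at -2.16 and -2.43, for SHP2 sh1 and SHP2 sh2 in that order. At the other end PSMD4 was at 0.19 and 0.18, and PSMD3 at 0.23 and -0.60. Across the 37 members the 2 distances had a Pearson's r of 0.85 and a Spearman's rho of 0.83, and 0.81 and 0.79 over the 35 without PSMA8 and PSMB11. Across all 18417 genes they had 0.85 and 0.82. These are correlations across genes, which are not independent replicates and share the arrays and their joint normalization.

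**Figure D4:**
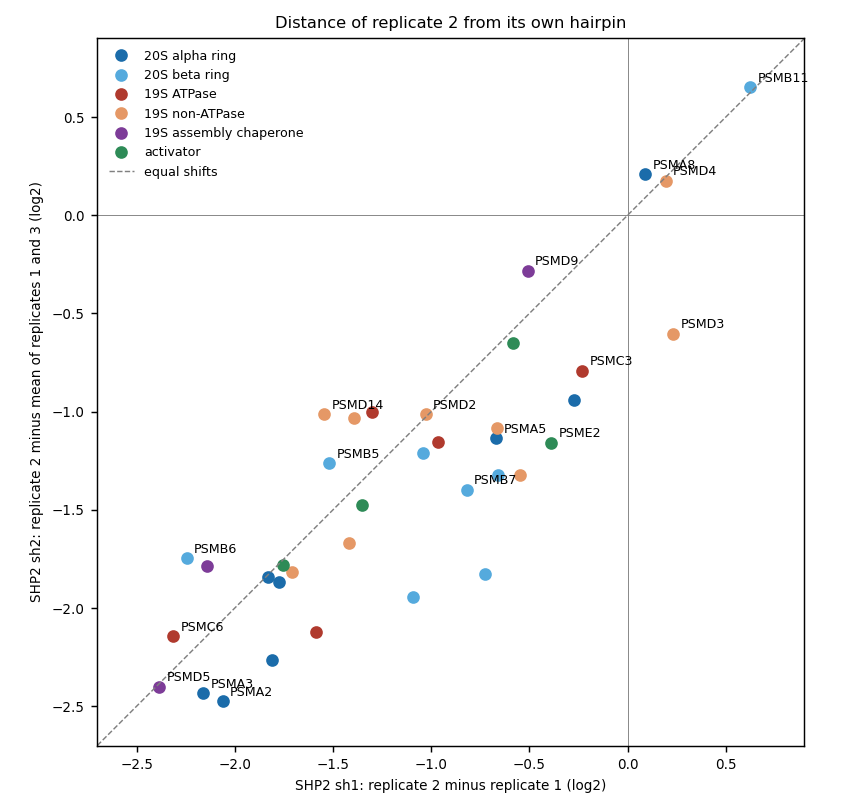
Distance of replicate 2 from the other arrays of its hairpin (log2), SHP2 sh1 on the horizontal and SHP2 sh2 on the vertical axis, with 1 point for each of the 37 proteasome subunit genes, coloured by part of the proteasome. The points run along the line of equal distances, from PSMD5 at -2.38 and -2.40 to PSMB11 at 0.62 and 0.65.

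The parts of the proteasome overlapped in this distance. The medians were -1.81 in SHP2 sh1 and -1.87 in SHP2 sh2 for 7 alpha ring genes without PSMA8, and -1.04 and -1.40 for 7 beta ring genes without PSMB11. They were -1.30 and -1.16 for the ATPases, -1.03 and -1.03 for the non-ATPase subunits, -2.14 and -1.78 for the 3 chaperones and -0.97 and -1.32 for the activators. Within the alpha ring alone PSMA2 was at -2.06 and -2.48 and PSMA5 at -0.67 and -1.13. Over the 35 members without PSMA8 and PSMB11 the distance had a weak correlation with control brightness (r = -0.24 in SHP2 sh1 and -0.37 in SHP2 sh2) and with the log10 of the genomic span (r = -0.18 and -0.19). Over the 30 of them with a promoter sequence, the correlation with its share of G and C was 0.15 and 0.29.

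Promoters of 3 genes among the 6 lowest (PSMA2, PSMC6 and PSMD5) and of 1 gene among the 5 highest (PSMD3) by this distance are shown, a choice made after the values were seen, so that their sequences can be set side by side. Each is 300 bases from RefSeq (GRCh38.p14), from 250 before to 50 after the annotated start of the gene, on the strand of the gene. Capitals mark matches on either strand to 3 motifs: TGACNNNGC, the core of the antioxidant response element to which NFE2L1 and NFE2L2 bind, CCGGAAG, a core of the sites of ETS factors, and CCAAT, to which NF-Y binds. Each motif was counted apart from the others, and matches may overlap. PSMA2 is at chr7:42932125-42932424 on the minus strand, PSMC6 at chr14:52706950-52707249 on the plus strand, PSMD5 at chr9:120842873-120843172 on the minus strand and PSMD3 at chr17:39980557-39980856 on the plus strand.
PSMA2: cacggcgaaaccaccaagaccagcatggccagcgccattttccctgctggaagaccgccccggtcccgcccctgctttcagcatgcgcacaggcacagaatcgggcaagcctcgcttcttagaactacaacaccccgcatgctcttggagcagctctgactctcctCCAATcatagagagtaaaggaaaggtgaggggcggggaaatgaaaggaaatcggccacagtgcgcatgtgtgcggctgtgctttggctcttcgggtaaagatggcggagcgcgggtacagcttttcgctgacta
PSMC6: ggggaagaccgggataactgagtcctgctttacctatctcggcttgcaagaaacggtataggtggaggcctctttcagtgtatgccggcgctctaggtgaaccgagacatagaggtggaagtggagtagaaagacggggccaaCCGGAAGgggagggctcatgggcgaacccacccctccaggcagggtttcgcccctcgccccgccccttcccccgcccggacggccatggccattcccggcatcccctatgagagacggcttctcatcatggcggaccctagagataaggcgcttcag
PSMD5: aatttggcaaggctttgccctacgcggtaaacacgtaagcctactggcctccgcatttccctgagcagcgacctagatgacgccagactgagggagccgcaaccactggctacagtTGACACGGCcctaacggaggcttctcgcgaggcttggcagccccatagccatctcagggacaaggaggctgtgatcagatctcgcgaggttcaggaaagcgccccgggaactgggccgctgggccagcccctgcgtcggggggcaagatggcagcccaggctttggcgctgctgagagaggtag
PSMD3: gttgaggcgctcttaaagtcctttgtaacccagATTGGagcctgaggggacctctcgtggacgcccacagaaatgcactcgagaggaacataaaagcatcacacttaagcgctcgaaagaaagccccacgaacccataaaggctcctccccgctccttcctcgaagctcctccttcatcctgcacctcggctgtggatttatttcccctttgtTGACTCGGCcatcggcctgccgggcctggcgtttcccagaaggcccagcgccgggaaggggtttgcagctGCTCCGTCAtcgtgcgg
PSMA2 held a CCAAT match 84 bases before the start and PSMC6 a CCGGAAG match 107 bases before it. PSMD5 held TGACACGGC 134 bases before the start. PSMD3 held TGACTCGGC 37 bases before the start and, on the other strand, GCTCCGTCA 34 bases after it and a CCAAT match 217 bases before it.

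A promoter sequence was at hand for 32 of the 37 members. TGACNNNGC was found in 10 of them (31.3%), where 13.6% of 27305 promoters held it: PSMB3, PSMC4, PSMD1, PSMD3, PSMD5, PSMD9, PSMD12, PSME1, PSME2 and PSME4. CCGGAAG was also found in 10 (31.3%), against 10.7% of all promoters, among them PSMC6, PSMD8 and PSMD14. CCAAT was found in 15 (46.9%), against 35.7%, among them PSMA2, PSMA5, PSMB5 and PSMD3. A match is a description, not a site or a cause. Genes with a TGACNNNGC match lay at both ends of the distance of replicate 2, PSMD5 at -2.38 and -2.40 and PSMD3 at 0.23 and -0.60.

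Without SHP2 sh1 replicate 2 and SHP2 sh2 replicate 2, the proteasome subunit genes lay close to the controls. The median of the 37 was 0.10 on the 1 array left of SHP2 sh1, -0.05 with SHP2 sh2 and 0.06 for the mean of both. All genes had medians of -0.02, 0.03 and 0.0018. The lone SHP2 sh1 array was assumed to vary like the other groups. Of 111 values of the 37 members on the 3 remaining SHP2 hairpin arrays, 104 lay within 0.5 of the control mean. For the mean 25 of 37 members were above 0 and 12 below. The lowest were PSMA2 at -0.27 (SE 0.21), PSMD2 at -0.23 (SE 0.07) and PSMB11 at -0.17 (SE 0.09). The highest were PSMB6 at 0.44 (SE 0.23), PSMA5 at 0.34 (SE 0.09) and PSMA6 at 0.29 (SE 0.24). PSMD2 was below both controls and PSMA5 above both on all 3 arrays. Neither for this nor for the 104 of 111 values was the share of all genes counted. limma called 0 of 37 members and 0 of 18417 genes, and the smallest adjusted p of a member for the mean was 0.575. At an unadjusted p under 0.05 there were 2 members, PSMA5 and PSMD2, and 1539 of all genes.

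**Figure D5:**
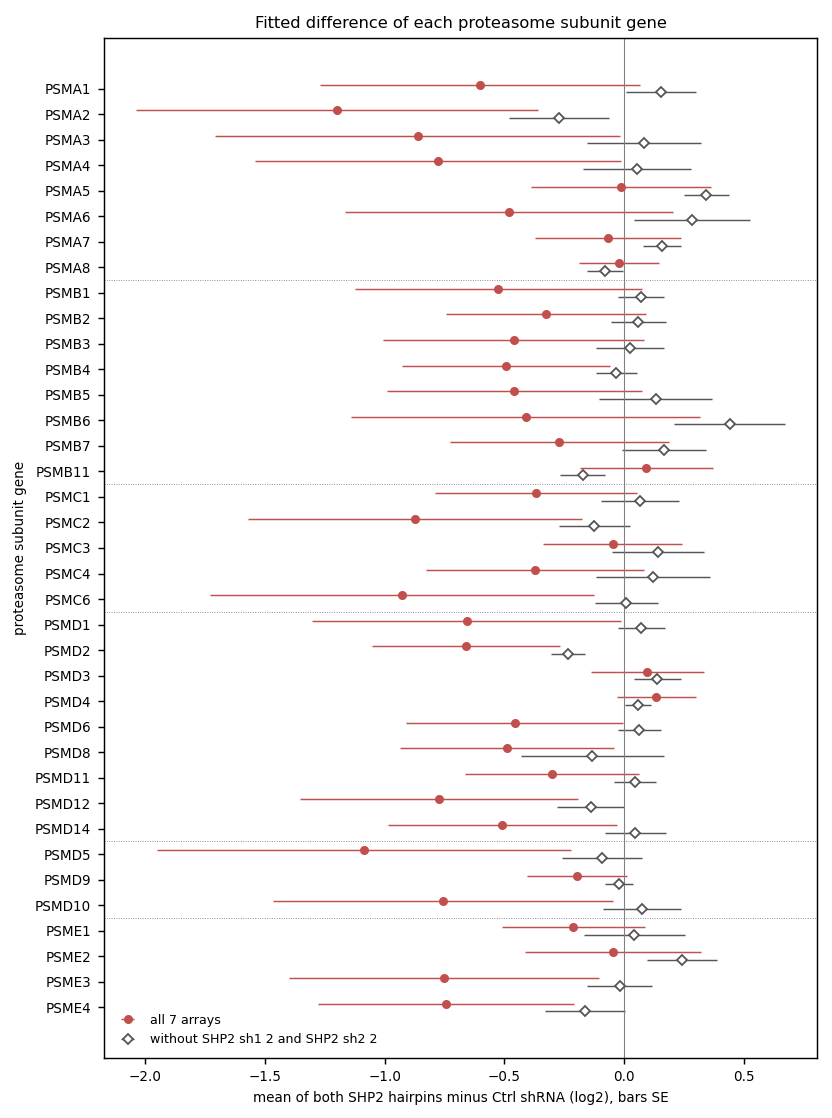
Difference of the mean of both SHP2 hairpins from Ctrl shRNA (log2, horizontal axis) for each proteasome subunit gene (rows, by part of the proteasome), with bars of 1 SE, over all 7 arrays (filled) and without SHP2 sh1 replicate 2 and SHP2 sh2 replicate 2 (open). The filled points reach -1.20 for PSMA2, whereas the open points lie between -0.27 for PSMA2 and 0.44 for PSMB6.

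The 2 SHP2 hairpins did not differ from each other past the test in any proteasome subunit gene. The median log2 difference of SHP2 sh2 from SHP2 sh1 was 0.05 over the 37 members, with 15 below 0, against 0.03 over all genes, with 44.7% below 0. limma called 0 of 37 members, where 0% of all genes were called, and 0 members and 116 of all genes had an unadjusted p under 0.05. PSME2, the interferon-inducible activator PA28 beta, had the lowest difference at -0.53 (SE 0.40). It was at 9.25, 8.28 and 9.63 with SHP2 sh2, against 9.78 and 9.40 with SHP2 sh1, and was at 9.40 and 9.34 with Ctrl shRNA. PSMB6 followed at -0.48 (SE 0.79). PSMD14, the deubiquitinase of the lid, had the highest difference at 0.47 (SE 0.52), at 9.10, 8.21 and 9.34 with SHP2 sh2, against 9.19 and 7.64 with SHP2 sh1. PSMB5 followed at 0.36 (SE 0.58). The adjusted p was 1.00 from limma for each of the 4. In all of them the arrays of both hairpins overlapped. Without SHP2 sh1 replicate 2 the members' median was -0.60, and without SHP2 sh1 replicate 1 it was 0.54. Without SHP2 sh2 replicates 1, 2 or 3 it was -0.16, 0.47 or -0.27.

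Many other genes of the pathway were also lowest on the replicate 2 arrays of the SHP2 hairpins, where bright genes in general were low. Of 6 assembly factors outside the subunit families 0 passed the test for the mean of both hairpins, and 5 were below 0. POMP, which matures the core particle, was at 11.05 and 9.17 under SHP2 sh1 and at 10.37, 8.98 and 11.19 under SHP2 sh2, against 10.98 and 11.09 under Ctrl shRNA. Its difference was -0.89 (SE 0.69, adjusted p = 0.758 from limma), with the 2 replicate 2 arrays lowest, and -0.12 without them. Of 4 other genes of subunits or associated proteins of the assembled proteasome (ADRM1, SEM1, UCHL5 and USP14) 0 passed and 4 were below 0. Of 13 regulators 0 passed and 12 were below 0. Their medians were -0.62 and -1.14 on the 2 replicate 2 arrays and -0.03 to 0.13 on the other 3 SHP2 hairpin arrays. The 4605 brightest of all genes had medians of -0.61 and -1.01 on the 2 replicate 2 arrays. After cyclic loess the medians there were -0.42 and -0.47 for the regulators and -0.35 and -0.43 for the 4605. For the mean of both hairpins 83.6% of the 4605 and 42.0% of all genes were below 0. No test of the pathway genes against the 4605 was made. PSMF1, the inhibitor PI31, was at 10.31 and 9.69 under SHP2 sh1 and at 10.13, 9.24 and 10.36 under SHP2 sh2, against 10.22 and 10.26 under Ctrl shRNA. NFE2L1 was at 10.42 and 9.62 under SHP2 sh1 and at 10.15, 9.88 and 10.18 under SHP2 sh2, against 9.89 and 10.11 under Ctrl shRNA. Its difference was 0.05 (SE 0.26, adjusted p = 0.927 from limma), or 0.29 without both replicate 2 SHP2 arrays, and the groups overlapped. NFE2L2, a related factor that binds the same element, was at 9.98 and 8.68 under SHP2 sh1 and at 8.83, 8.09 and 9.59 under SHP2 sh2, against 9.74 and 9.74 under Ctrl shRNA. All 3 SHP2 sh2 arrays lay below both controls, as they did for 16.1% of all genes, and the SHP2 sh1 arrays lay on either side of the controls. Its difference was -0.66 (SE 0.48, adjusted p = 0.758 from limma), or -0.15 without both replicate 2 SHP2 arrays.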

How the data were processed

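RNA of SUM159 cells was hybridized to 7 Human Gene 1.0 ST arrays. The deposited log2 values were made by the authors with oligo, whose version is not given in the sources here, by robust multi-array averaging, with background correction and quantile normalization, and were used as given. Symbols of the platform annotation were updated by gene ID through RefSeq (GRCh38.p14). Of 33297 probes, 19460 had 1 symbol and 1754 several, which named no gene. For 769 genes with several probes the probe of largest interquartile range was taken, as in the study's methods.

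limma (3.58.1, R 4.3.3) fitted the 3 group means over 7 arrays with eBayes. P-values are two-sided and were adjusted over 18417 genes by the Benjamini-Hochberg method, with calls under 0.05. The procedure was tested on simulated data. The members, lists and tests were chosen with earlier results of these data known. Named members were the catalytic PSMB5, PSMB6 and PSMB7, the tissue-restricted genes, the brightest and dimmest, and those of most extreme difference in each comparison. Alternatives were other probe choices, cyclic loess, median centring, leaving out dim genes, eBayes with a trend, gene-by-gene array weights, a replicate block, fits on the compared arrays alone, and arrays left out singly or both replicate 2 SHP2 arrays together. The number of arrays limits the precision.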

Additional observations from a re-analysis of the deposited data

How the results depend on the processing

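In every alternative limma called 0 members in each of the 4 comparisons, and 0 genes in all but 1, gene-by-gene array weights, which called 122 genes with SHP2 sh2, 0 of them members. The SHP2 sh1 median of the members (-0.38) ran from -1.09 to 0.10 with 1 array left out, that of SHP2 sh2 (-0.53) from -0.72 to -0.05, that of the mean (-0.46) from -0.80 to -0.13 and that of SHP2 sh2 minus SHP2 sh1 (0.05) from -0.60 to 0.54. Cyclic loess gave -0.26, -0.28, -0.26 and 0.10. Of the single-gene differences printed, 22 of the values under alternatives changed sign, none of them past the threshold. For the mean of both hairpins, leaving out both replicate 2 SHP2 arrays gave 0.0092 for PSMC6, 0.13 for PSMB5, 0.44 for PSMB6, 0.17 for PSMB7, 0.34 for PSMA5 and -0.17 for PSMB11. With 1 array left out, the mean ran from -0.97 to 0.15 for PSMB6, from -0.18 to 0.18 for PSMA5, from -0.0625 to 0.25 for PSMB11, from -0.15 to 0.24 for NFE2L1, from -1.71 to -0.68 for PSMA2, from -1.68 to -0.49 for PSMD5, from -1.50 to -0.35 for PSMC6, from -0.99 to -0.34 for NFE2L2 and from -1.35 to -0.42 for POMP, and SHP2 sh2 minus SHP2 sh1 from -1.61 to 0.64 for PSMB6, from -0.40 to 1.12 for PSMB5 and from -0.31 to 1.24 for PSMD14. PSMA5 was at 0.13 and PSMB11 at -0.061 with cyclic loess, PSMA5 at 0.15 with array weights, and NFE2L1 at -0.0064 with median centring. The cause was not tested. With the replicate number as a block the members' medians were -0.38, -0.72, -0.63 and -0.27, and 5, 19, 14 and 3 members had an unadjusted p under 0.05, none past the threshold, as had 753, 3323, 2427 and 468 of all 18417 genes, against 201, 432, 358 and 116 without the block. The numbers are not shown to pair the arrays. In their deviations from the group means, arrays of the same number correlated by -0.06 (SHP2 sh1 with Ctrl shRNA), 0.02 and -0.03 (SHP2 sh2 with Ctrl shRNA) and 0.62 and 0.85 (SHP2 sh2 with SHP2 sh1). SHP2 sh1 replicate 1 and SHP2 sh2 replicate 3, of different number, correlated by 0.81. In a group of 2 arrays the deviations mirror each other, so SHP2 sh1 with Ctrl shRNA gives only 1 value. Changes of sign under the alternatives were counted for the printed single-gene differences only.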

Other observations

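The interferon-inducible catalytic subunits, which replace PSMB5, PSMB6 and PSMB7 in the immunoproteasome, were not alike. PSMB9 was at 9.03 and 8.11 under SHP2 sh1 and at 8.47, 7.67 and 8.61 under SHP2 sh2, against 8.90 and 8.96 under Ctrl shRNA. Its SHP2 sh2 arrays lay below both controls, as all 3 did for 16.1% of all genes. PSMB8 was at 7.63 and 7.41 under SHP2 sh1 and at 7.47, 6.53 and 7.55 under SHP2 sh2, against 7.54 and 7.76 under Ctrl shRNA. PSMB10 was at 7.43 and 7.74 under SHP2 sh1 and at 7.64, 7.46 and 7.62 under SHP2 sh2, against 7.22 and 7.23 under Ctrl shRNA, and all 5 SHP2 hairpin arrays lay above both controls, as they did for 8.13% of all genes. None of the 3 passed in the mean of both SHP2 hairpins (adjusted p = 0.758 from limma for each). UBB, a gene of ubiquitin itself, was at 11.85 and 11.99 under SHP2 sh1 and at 11.87, 12.01 and 11.87 under SHP2 sh2, against 11.76 and 11.69 under Ctrl shRNA, where all 5 lay above both controls as well and the test was likewise not passed (adjusted p = 0.758 from limma). UBA1, the main enzyme that activates ubiquitin, was at 11.41 and 11.21 under SHP2 sh1 and at 11.46, 10.73 and 11.60 under SHP2 sh2, against 11.60 and 11.59 under Ctrl shRNA.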
